A study of Mus musculus with 18 samples.

Results

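The comparison set Dnmt1 mutant MPP4 cells against control MPP4 cells of the mouse. All 8 MPP4 libraries of the 18 libraries in the series were used, 4 mutant and 4 control, chosen by the genotype and population that the labels give. Both groups are lineage-negative bone marrow progenitors of the BALB/c strain, sorted without RNA extraction into lysis buffer and sequenced with CEL-Seq2, which primes at the poly(A) tail and tags each captured molecule with a unique molecular identifier (UMI). Control animals are labelled wt, and mutant animals carry dnmt1-/- in the genotype field, whereas the series text describes a hypomorphic missense change of Dnmt1 designed from fish mutants, so the mutants are described here as mutant and not as lacking the gene. The labels name 3 sequencing batches: A holds control 1 and mutant 1, B holds control 2 and mutant 2, and C holds controls 3 and 4 and mutants 3 and 4. The labels state no age, number of cells or number of animals behind a library, so the p-values speak of variation among these libraries, which can be technical in part.

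DNMT1 copies DNA methylation onto the new strand after each round of replication, with UHRF1 bringing it to the replication fork. The methylation it keeps in place silences many germline genes, imprinted alleles and repeats in somatic cells. MPP4 cells are the lymphoid-primed multipotent progenitors of the bone marrow, marked by the cytokine receptor FLT3, and give rise to lymphocytes and to part of the myeloid cells. The comparison asks which transcripts differ in these cells when DNMT1 carries the mutation.

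Of 9392 genes tested, 8 were higher in mutant MPP4 (0.0852%) and 0 were lower (0%), with edgeR's quasi-likelihood test at a Benjamini-Hochberg adjusted p of 0.05. They are the AP-1 genes Fos and Jun, the germline-type genes Slc25a31, 3830403N18Rik and Stag3, the X-linked Xlr4a, the transporter gene Slc16a11 and the signalling gene Tifab. In all 8 genes every mutant library lay above every control library, which held for 140 of all genes tested (1.49%). The 8 were picked by the test on these same libraries, so this separation is not separate evidence. At an unadjusted p of 0.05, 668 genes differed (7.11%), of which 367 were higher (3.91%) and 301 lower (3.2%), and DESeq2 on the same counts called 27 higher and 4 lower. Only Fos was called in each of the 22 other ways of running the test. Each of the other 7 was not called in 5 to 12 of them, counting those in which its counts were too low to be tested. Leaving out control 3, leaving out mutant 1 or using batch C by itself each kept 1 of the 8, and leaving out control 1 kept 2. Control 1 and mutant 1 make up batch A, so leaving out either takes that batch out of the genotype contrast.

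Total counts ran from 373963 in control 4 to 1943562 in control 2, and mutant libraries held 398786 to 1094544. Control 4 had the fewest counts but 18226 genes with a count, against 12921 to 14911 in 6 of the others. Erythroid transcripts made up 19.3% of the counts in mutant 2 and 3.06% in control 4, and 0.067% to 0.117% in the other 6 libraries. Neutrophil markers followed with 3.51% and 0.385%, against 0.0145% to 0.0353%. B cell and plasma cell markers reached 1.26% in mutant 3 and 0.262% in control 4, against 0.0534% to 0.114%. Xist was at 1683 to 3263 normalised counts (CPM, counts scaled to a common library total) in controls 1 and 4 and mutants 2 and 4 and at 0 to 36.3 CPM elsewhere, so each genotype held 2 Xist-positive libraries, but within batches A and B the mutant and the control differed in it. In sorted pools like these, fewer cells of a type and less RNA per cell cannot be told apart.

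**Figure D1:**
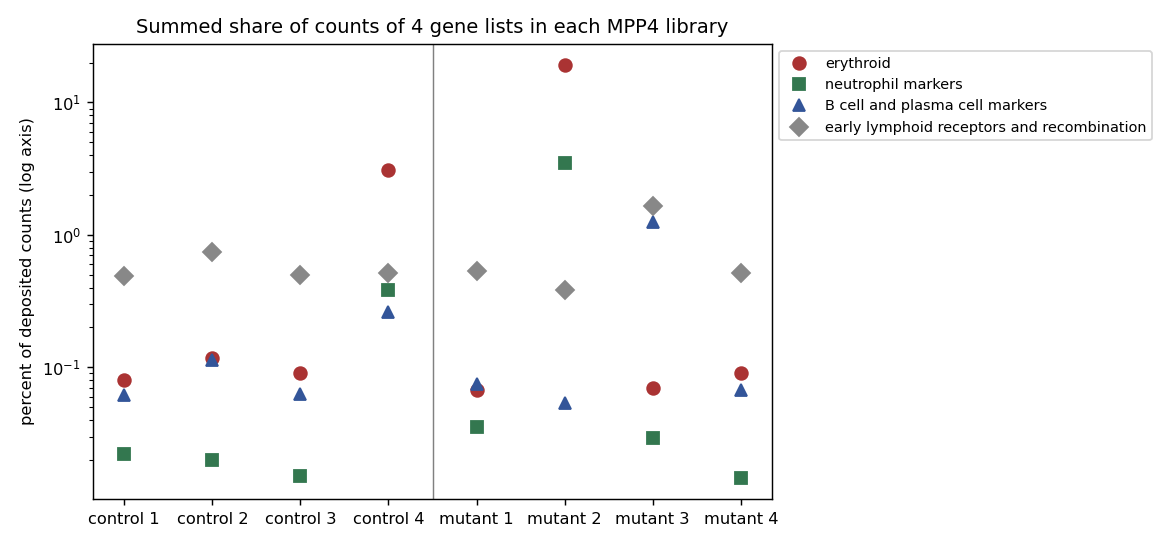
Share of deposited counts, in percent on a log axis, taken by 4 gene lists in each MPP4 library (1 point per list and library, controls left and mutants right of the line). Control 4 and mutant 2 stand apart for erythroid (3.06% and 19.3%) and neutrophil transcripts, mutant 3 for B cell and plasma cell transcripts (1.26%).

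The libraries carried the pattern that the MPP4 label implies. Flt3 averaged 476 ± 50.6 CPM in control MPP4 (SD, n = 4) and 30.4 ± 9.10 CPM in control HSC (SD, n = 3), on a scale common to all 18 libraries. Dntt, which adds bases at V(D)J junctions, averaged 851 ± 396 CPM in control MPP4 and 2.22 ± 3.84 CPM in control HSC, and Il7r, the interleukin 7 receptor chain, summed to 254 and 0 counts. Slamf1, a marker of stem cells, averaged 4.37 ± 5.58 CPM in control MPP4 and 57.1 ± 31.9 CPM in control HSC. Mutant MPP4 held Flt3 and Dntt at 487 ± 134 and 789 ± 318 CPM (SD, n = 4). Il7r averaged 53.9 ± 28.8 CPM in control and 20.4 ± 20.85 CPM in mutant MPP4, with 0 counts in mutant 2. Kit averaged 366 ± 79.5 CPM in control and 267 ± 20.1 CPM in mutant MPP4, and 563 ± 96.3 CPM in control HSC. Neither Il7r nor Kit was called between genotypes. The log2 change between genotypes was -0.01 (SE 0.23) for Flt3, -0.08 (SE 0.38) for Dntt and -0.37 (SE 0.24) for the chromatin organiser Satb1, with adjusted p of 0.998, 0.984 and 0.844.

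Dnmt1 mRNA was present in every library. It stood at 235, 315, 345 and 407 CPM in controls 1 to 4 and at 245, 231, 319 and 310 CPM in mutants 1 to 4. The ranges overlap, and the log2 change was -0.22 (SE 0.20, adjusted p = 0.901). A 3′ count of this kind does not see a missense change and checks neither the protein nor its activity.

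Slc25a31 encodes an ADP/ATP carrier of the mitochondrial inner membrane that is used in male germ cells. It lies on chromosome 3 (40708855 to 40726096, plus strand, GRCm38). No control library held a count of it, while the mutants held 25, 6, 5 and 63, which is 30.6, 12.9, 12.7 and 51.0 CPM. With a floor of 3 counts over the control group it was at least 62.7-fold higher in mutants (adjusted p = 0.0169). The contrast is between none in 4 libraries and some in all 4, at low counts throughout.

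3830403N18Rik, a protein-coding gene on chromosome X (56136572 to 56153498, plus strand, GRCm38), showed nearly the same pattern. It was at 0, 1.30, 0 and 4.07 CPM in controls 1 to 4 and at 50.1, 15.1, 17.8 and 30.8 CPM in mutants 1 to 4. The log2 change was 5.05 (SE 0.74, adjusted p = 0.0157), resting on 4 counts in all controls and 93 in all mutants. Both Xist-positive and Xist-negative mutants held it, and with Xist added as a term all 8 calls were made again.

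Stag3, the cohesin subunit that holds chromosomes together in meiosis, lies on chromosome 5 (138280240 to 138312393, plus strand, GRCm38). Unlike the previous genes it had counts in every control, at 6.59, 17.3, 11.6 and 24.4 CPM. The mutants stood at 36.7, 84.1, 35.7 and 48.6 CPM, and the log2 change was 1.998 (SE 0.33, adjusted p = 0.0169). Within batch C alone, the log2 change of 1.53 did not pass (adjusted p = 0.623).

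Xlr4a belongs to the X-linked lymphocyte-regulated family, a cluster of multicopy genes on chromosome X (73074345 to 73082478, minus strand, GRCm38). Controls 1 to 4 stood at 3.59, 0.864, 0 and 0 CPM and mutants 1 to 4 at 19.6, 15.1, 12.7 and 19.4 CPM. The log2 change was 3.62 (SE 0.66, adjusted p = 0.0380), and it was not called in 12 of the 22 other ways of running the test, untested in 2 of those. Among them are the fits without each of the mutants in turn (adjusted p from 0.0683 to 0.156). Copies of the family are near-identical, so how reads were divided among them is uncertain. Of 9 family members in the files, 3 were tested and 1 rose. Its neighbours Xlr3a and Xlr4b, chosen here after their values were seen, had log2 changes of 3.09 (SE 0.73, adjusted p = 0.182) and 0.99 (SE 0.35, adjusted p = 0.468). Xlr3a was at 0, 10.8, 0.774 and 4.07 CPM in controls and at 17.1, 23.7, 20.4 and 42.1 CPM in mutants, so its groups did not overlap.

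The stretches upstream of these start sites are shown because CpG sites are what DNMT1 acts on. They are the 250 bases before the RefSeq start (GRCm38.p6), cut back where a GENCODE exon begins, in the direction of transcription, with each CpG in capitals.
Slc25a31 (chr3:40708621-40708854, plus strand): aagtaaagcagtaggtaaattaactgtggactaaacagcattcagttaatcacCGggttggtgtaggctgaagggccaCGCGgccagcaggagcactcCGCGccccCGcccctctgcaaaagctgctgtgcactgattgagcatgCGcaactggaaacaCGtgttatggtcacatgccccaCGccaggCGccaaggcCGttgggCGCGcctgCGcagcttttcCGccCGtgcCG
3830403N18Rik (chrX:56136322-56136571, plus strand): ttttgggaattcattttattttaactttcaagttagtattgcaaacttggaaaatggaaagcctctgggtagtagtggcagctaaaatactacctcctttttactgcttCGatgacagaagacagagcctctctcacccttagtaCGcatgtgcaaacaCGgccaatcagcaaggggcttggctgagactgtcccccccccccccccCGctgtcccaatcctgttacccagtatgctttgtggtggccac
Xlr4a (chrX:73082508-73082757, minus strand): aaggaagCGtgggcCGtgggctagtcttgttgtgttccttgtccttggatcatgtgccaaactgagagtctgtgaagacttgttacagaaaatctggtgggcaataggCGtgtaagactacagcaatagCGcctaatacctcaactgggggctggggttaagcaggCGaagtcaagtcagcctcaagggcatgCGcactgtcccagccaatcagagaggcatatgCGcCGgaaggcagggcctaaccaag

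The start sites differ in CpG content. The Stag3 window lies within annotated exons, since GENCODE starts the gene further upstream than RefSeq, so its sequence is not printed. The full windows of 250 bases hold 18 CpG for Slc25a31, 26 for Stag3, 8 for Xlr4a and 4 for 3830403N18Rik, and 21.7%, 9.59%, 43.0% and 62.2% of the 32851 windows in the RefSeq table hold as many or more. The median window holds 6. All 12 genes looked up were matched in the table. The E-box CACGTG, a palindrome and so the same on both strands, is present in the windows of Slc25a31 and Stag3 and in 6.02% of all windows, and is not in those of 3830403N18Rik and Xlr4a. The letters TCCCGC, searched on both strands, are in 16.9% of all windows and in none of these 4. Slc16a11, Tifab, Fos and Jun have windows with 14, 2, 15 and 15 CpG. These matches describe the letters only. Methylation at these sites was not analysed here.

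**Figure D2:**
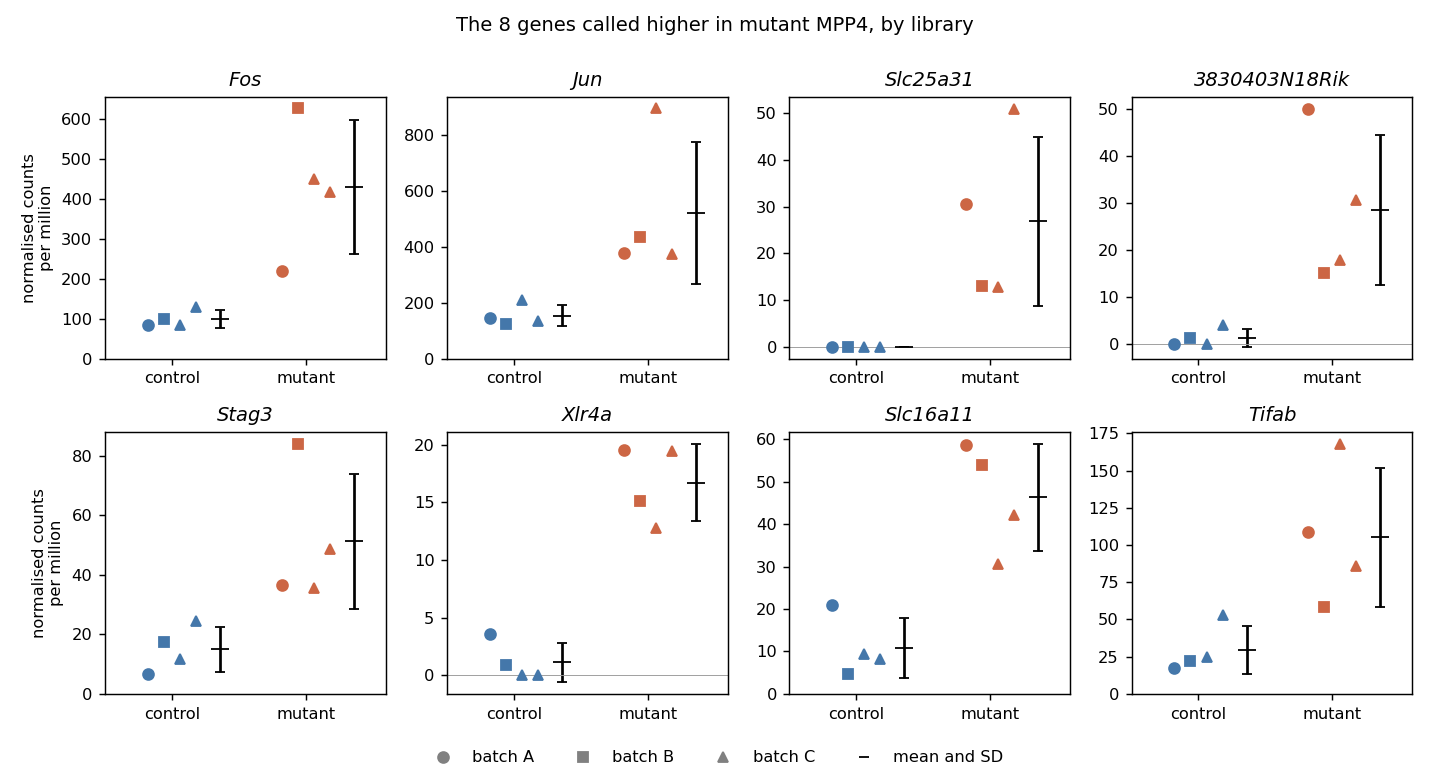
Normalised counts (CPM) of the 8 genes called higher in mutant MPP4, 1 point per library (circle batch A, square batch B, triangle batch C), with the group mean and SD beside the points. In each gene all 4 mutant points lie above all 4 control points, and Slc25a31 is at 0 in every control. The genes were picked by the test on these same libraries.

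As a group, the germline genes known to be kept silent by methylation were hardly detected. Of 60 such genes in the files, 48 had a count in some MPP4 library and 5 were tested, of which 3 rose (Slc25a31, 3830403N18Rik and Stag3). The list was drawn up with earlier results of these data known and includes these genes for that reason, so its count is not independent evidence. Slc25a31, 3830403N18Rik and also Xlr4a passed the filter on low counts only through the mutants, so they had to differ to be tested. The controls by themselves would not have carried Stag3, Xlr3a or Slc16a11 past it either, though some control libraries reached its level. The median log2 change of the 5 was 1.998, the same with Slc25a31 at its lower bound. The remaining tested members were Ddx4, an RNA helicase of germ cells, and Tdrkh, a piRNA pathway protein, with log2 changes of 0.70 (adjusted p = 0.517) and 0.60 (adjusted p = 0.851); both are named after their values were seen. Among untested members, Tex19.1 had 0 counts in all controls and 5 and 9 counts in mutants 3 and 4, at least 8.86-fold higher over the groups, and Rhox5 had 12 counts, all in mutant 4. Members without such a contrast included Sycp1, a synaptonemal complex protein, with 12 counts in each of controls 1 and 4 and 6 in mutant 2, and Dazl, an RNA-binding protein of germ cells, with 0 to 2 counts in every library. Piwil2 and Tex11 went the other way, with 15 and 12 counts over the controls and 3 over the mutants for each. Scaled for depth they were 2.63-fold and 2.11-fold higher in controls, with 95% intervals of 0.745 to 14.2 and 0.569 to 11.6. Other untested members with few counts leaned either way. Control 4, the library with the fewest counts, held counts of 35 members, against 13 to 24 in the other libraries.

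Fos and Jun encode the partners of the AP-1 transcription factor and belong to the immediate-early genes, which are transcribed soon after a stimulus without new protein synthesis. Fos (chromosome 12, 85473890 to 85477273, plus strand, GRCm38) stood at 83.9, 98.5, 83.6 and 130 CPM in controls 1 to 4. In mutants 1 to 4 it stood at 220, 629, 451 and 418 CPM. The log2 change was 2.06 (SE 0.24, adjusted p = 0.000914), with 1.37 within batch A, 2.65 within B and 2.04 within C. Without control 4 and mutant 2 together it was 1.95 (adjusted p = 0.000852).

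Jun (chromosome 4, 95049034 to 95052222, minus strand, GRCm38) stood at 144.3, 125, 209 and 134 CPM in controls and at 377, 435, 897 and 373 CPM in mutants. Mutant 3 was highest, and the lowest mutant was above the highest control. The log2 change was 1.72 (SE 0.27, adjusted p = 0.0169), with 1.37, 1.79 and 1.78 within batches A, B and C. Without control 4 and mutant 2 it was 1.51 and no longer passed (adjusted p = 0.0815).

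Of 33 tested AP-1 and immediate-early genes, 2 rose, Fos and Jun (6 with DESeq2), and 26 had a log2 change above 0, against 49.5% of all genes tested. The share called among all genes was 0.0852% with edgeR, and DESeq2 called 31 of 9392 genes. In 9 of the 33 every mutant was above every control (1.49% of all genes). The median log2 change of the list was 0.81, against -0.004 for all genes, and it was 0.21 without control 4 and mutant 2, with 12 of 33 genes then wholly above controls (4.29% of all genes in those 6 libraries). Leaving out 1 library moved it as far: it was 0.24 without control 2, 0.24 without mutant 2, 0.90 without control 4 and 1.21 without control 1 or without mutant 1. The list took 0.220%, 0.252%, 0.282% and 0.185% of the counts in controls 1 to 4 and 0.221%, 0.452%, 0.630% and 0.408% in mutants, so mutant 1 was within the control range. The zinc-finger factor gene Egr1 was at 15.0, 25.5, 41.03 and 20.3 CPM in controls and at 48.9, 136, 359 and 93.1 CPM in mutants, a log2 change of 2.37 that did not pass (SE 0.46, adjusted p = 0.161). Dusp1, a phosphatase that switches off MAP kinases, and Zfp36, which promotes decay of short-lived mRNAs, had log2 changes of 1.28 and 1.23 (adjusted p = 0.0717 for both), and Ier2 had 0.86 (adjusted p = 0.215); these 3 are named after their values were seen. With the erythroid, neutrophil and B cell genes left out of totals and tests, the median of the list was 0.81.

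The remaining called genes belong to no list. Slc16a11 (chromosome 11, 70212752 to 70216417, plus strand, GRCm38), a member of the monocarboxylate transporter family, stood at 21.0, 4.75, 9.29 and 8.14 CPM in controls and at 58.7, 53.9, 30.6 and 42.1 CPM in mutants, a log2 change of 2.21 (SE 0.36, adjusted p = 0.0169). Tifab (chromosome 13, 56173704 to 56178885, minus strand, GRCm38) encodes a relative of the TRAF-interacting protein TIFA that dampens TRAF6 signalling in blood progenitors. It stood at 17.4, 22.02, 24.8 and 52.9 CPM in controls and at 109, 58.2, 168 and 85.8 CPM in mutants, a log2 change of 1.95 (SE 0.32, adjusted p = 0.0169). For both genes the lowest mutant was above the highest control, for Tifab by 58.2 against 52.9 CPM.

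Genes of G2 phase and mitosis lay mostly above 0 without any single one passing. Of 74 tested, 0 were called by edgeR and 6 by DESeq2, which called 31 of all 9392 genes. Of the 74, 45 had an unadjusted p under 0.05 (7.11% of all genes). A log2 change above 0 was seen in 71 (49.5% of all genes). In 24 every mutant was above every control (1.49% of all genes). The median log2 change was 0.61, and it ran from 0.52 to 0.77 over the other ways of running the test. The list took 0.789%, 0.979%, 1.03% and 0.757% of the counts in controls 1 to 4 and 1.12%, 0.975%, 1.40% and 1.46% in mutants, with mutant 2 inside the control range on that unscaled share. Without control 4 and mutant 2, 71 of 75 were above 0 with a median of 0.77, 43 had all mutants above all controls (4.29% of all genes in those libraries), and Aurka passed (log2 change 1.49, adjusted p = 0.0295).

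The leading members code for proteins of chromosome condensation and segregation. Plk1, a kinase that drives mitotic entry, was at 39.5, 39.7, 46.5 and 40.7 CPM in controls and at 111.3, 101, 73.9 and 104 CPM in mutants, a log2 change of 1.24 (SE 0.24, adjusted p = 0.0510). Its groups were apart, and its controls lay close together. Hmgb2, a chromatin protein abundant in dividing cells, had a log2 change of 1.17 (SE 0.22, adjusted p = 0.0502), and its groups overlapped, with controls 3 and 4 at 341 and 346 CPM and mutant 2 at 330 CPM. The kinetochore protein gene Cenpf had 0.99 (adjusted p = 0.0717), and the spindle genes Aurka and Prc1, named after their values were seen, had 1.26 (adjusted p = 0.0778) and 0.88 (adjusted p = 0.153).

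Genes of other parts of the cycle lay nearer to the median of all genes. Of 72 tested S phase genes 46 were above 0, with a median of 0.06 and 0 called by edgeR or DESeq2, and 2 had an unadjusted p under 0.05. Among all genes tested, 49.5% were above 0 and 7.11% had such a p. The S phase members with the smallest p were Tk1 and Tyms, which make thymidine nucleotides, and the ribonucleotide reductase subunit Rrm1, with log2 changes of 0.62, 0.58 and 0.40 (adjusted p = 0.438, 0.533 and 0.715). Cdkn2c, an inhibitor of CDK4 and CDK6, was at 9.58, 16.4, 27.9 and 24.4 CPM in controls and at 44.0, 58.2, 71.4 and 46.2 CPM in mutants, a log2 change of 1.56 (SE 0.30, adjusted p = 0.0529). Ccnd1, the cyclin that these kinases bind, had 1.18 (adjusted p = 0.257). Spc24, a subunit of the Ndc80 kinetochore complex, went the other way, at 146, 97.6, 119 and 199 CPM in controls and 101, 56.0, 38.2 and 51.0 CPM in mutants (log2 change -1.16, SE 0.27, adjusted p = 0.153). Of the 9 tested members of that complex and its partners, 8 were above 0, with a median of 0.37.

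Ribosomal protein genes had small positive changes: all 80 tested were above 0, with a median log2 change of 0.32, 0 were called by edgeR or DESeq2 and 4 had an unadjusted p under 0.05. That median ranged from 0.08 without control 1 (batch A lost from the contrast) to 0.41 without mutant 2 (batch B lost). Proteasome genes were above 0 in 29 of 31 (median 0.20, 0 called by either tool, 4 at an unadjusted p under 0.05). Heat shock chaperone genes were above 0 in 10 of 17 (median 0.06, 0 called by edgeR and 1 by DESeq2, 2 at an unadjusted p under 0.05), where Hspa8, a constitutive HSP70, had the smallest p at a log2 change of 1.06 (adjusted p = 0.154). For comparison, 49.5% of all genes tested were above 0, 7.11% had an unadjusted p under 0.05, and DESeq2 called 31 of 9392.

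**Figure D3:**
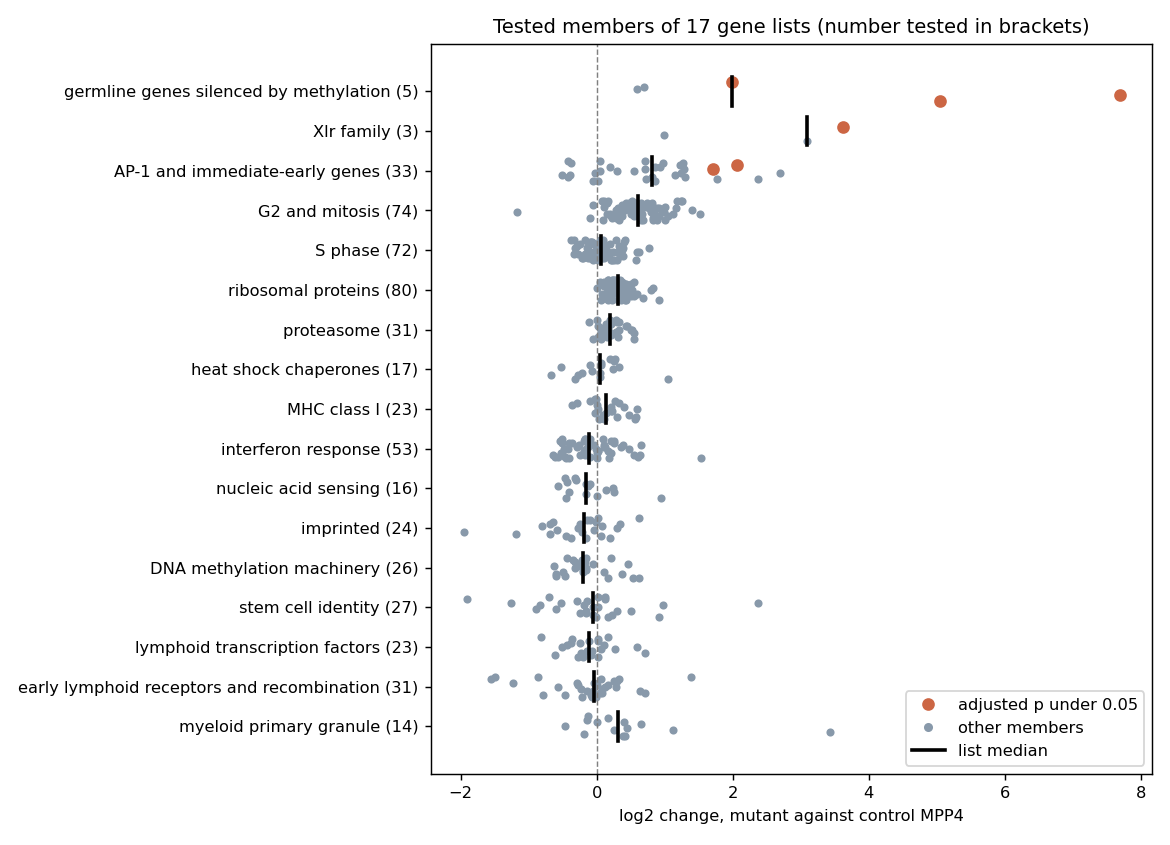
Log2 change between mutant and control MPP4 of each tested member of 17 gene lists, 1 point per gene, with called genes in orange and the list median as a black bar. The median is 1.998 for the germline list, 0.81 for AP-1 and immediate-early genes, 0.61 for G2 and mitosis and 0.32 for ribosomal proteins; vertical scatter within a row carries no value.

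No gene was called lower by edgeR, and the 6 with the smallest p in that direction are given as not passing; DESeq2 called 4 lower, Serpinf1 and Paqr5 among them. Serpinf1, which encodes the secreted anti-angiogenic factor PEDF, was at 63.5, 68.2, 72.0 and 24.4 CPM in controls and at 30.6, 12.9, 12.7 and 12.95 CPM in mutants (log2 change -1.81, SE 0.34, adjusted p = 0.0504). Control 4 was below mutant 1, so the groups overlapped. Paqr5, a membrane progestin receptor, was at 49.7, 31.5, 54.2 and 32.5 CPM in controls and at 6.12, 21.6, 5.10 and 8.91 CPM in mutants (log2 change -2.11, SE 0.41, adjusted p = 0.0567), with groups apart. The receptor genes Tie1 and Adgrl2 had log2 changes of -1.30 and -2.39, also with groups apart, and the interferon-inducible Ifitm1 had -0.90 (adjusted p = 0.147, 0.153 and 0.153). In 145 of all genes tested every mutant was below every control (1.54%). Celf4, an RNA-binding protein gene, was outside the test for low counts: controls held 18, 6, 5 and 10 counts and the mutants none, at least 6.85-fold lower over the groups.

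**Figure D4:**
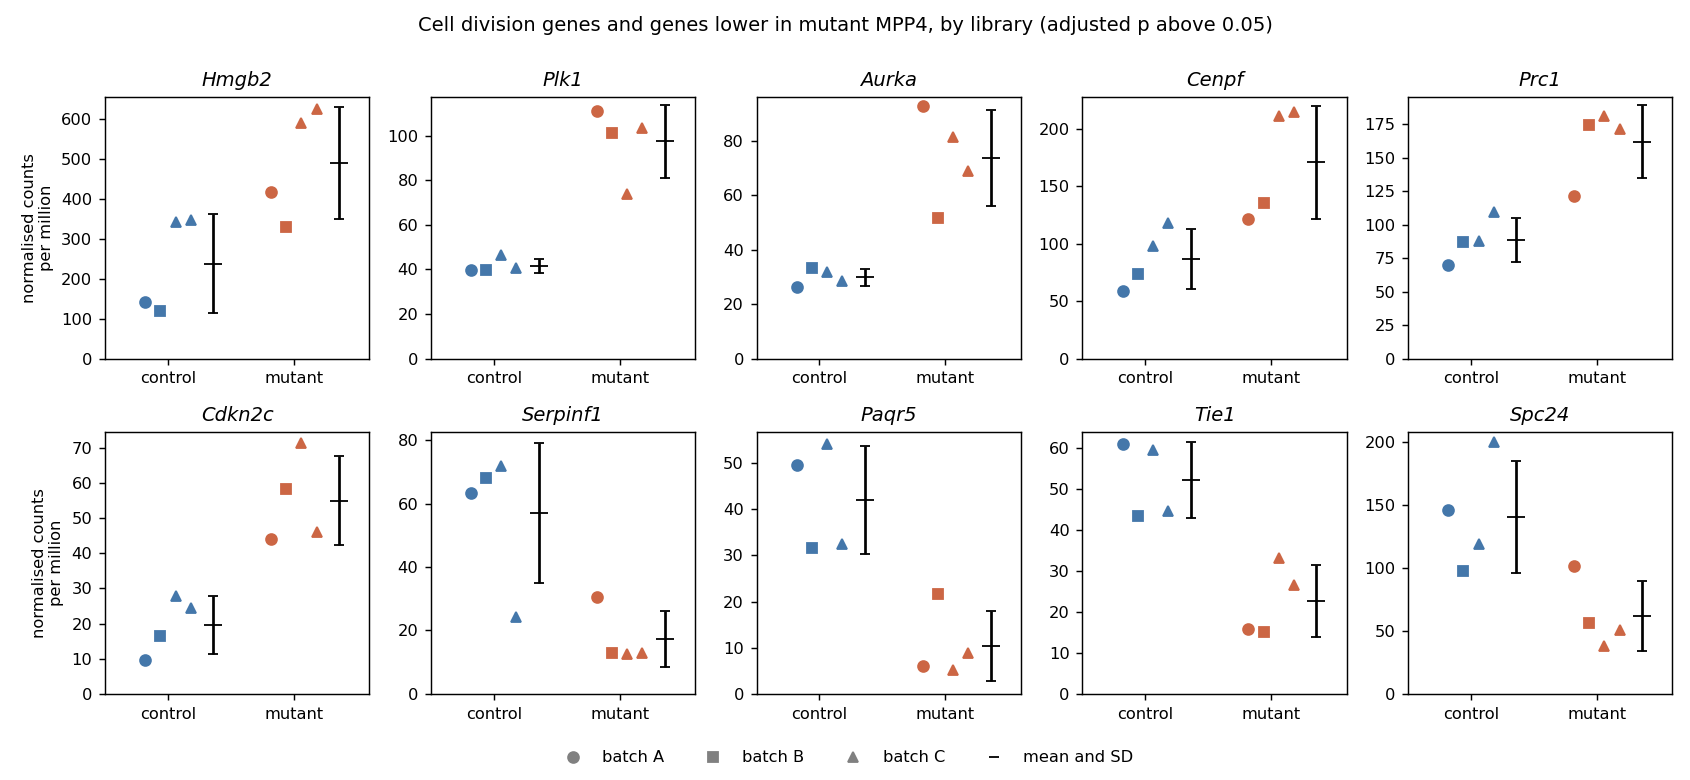
Normalised counts (CPM) by library for 6 cell cycle genes (Hmgb2, Plk1, Aurka, Cenpf, Prc1 and Cdkn2c) and 4 genes lower in mutants (Serpinf1, Paqr5, Tie1 and Spc24), with group mean and SD beside the points. None of the 10 passed the adjusted threshold with edgeR, and DESeq2 called 7 of them (not Prc1, Tie1 or Spc24); for Hmgb2, Serpinf1 and Spc24 the groups overlap.

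Lymphoid genes, the programme for which MPP4 cells are primed, were not called in either direction by edgeR or DESeq2. Of 23 tested lymphoid transcription factors 9 were above 0 (median -0.11), with the smallest p for Pou2f2, which encodes OCT2 (log2 change -0.82, adjusted p = 0.368), and Tcf12, an E protein gene (-0.61, adjusted p = 0.468). Of 31 early lymphoid receptor and recombination genes 14 were above 0 (median -0.03), and 3 genes of each list had an unadjusted p under 0.05. The shares among all genes tested were 49.5% above 0 and 7.11% with such a p. Il7r was at 17.4, 62.6, 45.7 and 85.4 CPM in controls and at 4.89, 0, 40.8 and 34.0 CPM in mutants, a log2 change of -1.55 (SE 0.62, adjusted p = 0.678). Rag1, which cuts DNA in V(D)J recombination, had -1.50 (SE 0.54, adjusted p = 0.525). Both spread widely between libraries of the same genotype, and without control 4 and mutant 2 the value for Il7r was -0.70. Early lymphoid transcripts took 1.66% of the counts in mutant 3, which had the most B cell transcripts, against 0.384% to 0.531% in the other mutants; 9 of the 40 genes of that list are also on the B cell list.

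Of 27 stem cell genes 0 were called by edgeR and 2 by DESeq2, 9 had an unadjusted p under 0.05 and 11 were above 0, with a median of -0.06. All genes tested gave 7.11% under that p and 49.5% above 0, and DESeq2 called 31 of 9392. Meis1, a homeobox factor of stem cells, had -0.83 (SE 0.21, adjusted p = 0.176), the cytokine receptor Kit -0.47 (adjusted p = 0.685) and the stem cell factor Mecom 0.12 (adjusted p = 0.962). Of 14 primary granule genes 10 were above 0 (median 0.32), 0 were called by edgeR and 1 by DESeq2, and 1 had an unadjusted p under 0.05. The granule enzyme Mpo had -0.46 (adjusted p = 0.918), while Elane, neutrophil elastase, ranged from 0 to 46.7 CPM in controls and from 0.810 to 138 CPM in mutants. Clec12a, an inhibitory receptor of myeloid cells that is grouped with the granule genes here, was at 49.7, 75.1, 39.5 and 73.2 CPM in controls and at 99.1, 185, 91.7 and 125 CPM in mutants (log2 change 1.12, SE 0.24, adjusted p = 0.0977). Gata1, the erythroid factor, was too low for the test, with 30.2 CPM in mutant 2, 12.2 CPM in control 4 and at most 2.45 CPM in the others.

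Lists tied to DNA methylation, or reported to respond when it is lost, were examined as well. Interferon response genes were above 0 in 22 of 53 (median -0.11) and sensors of foreign nucleic acid in 4 of 16 (median -0.16). Ddx58, which encodes the RNA sensor RIG-I, and Mb21d1, which encodes the DNA sensor cGAS, had log2 changes of -0.41 and -0.43 (adjusted p = 0.841 and 0.770). MHC class I genes were above 0 in 17 of 23 (median 0.14), led by the proteasome activator Psme2 at 0.59 (adjusted p = 0.514). Imprinted genes were above 0 in 7 of 24 (median -0.19), with Ube3a, a ubiquitin ligase, at -0.58 (adjusted p = 0.475). Genes of the DNA methylation machinery were above 0 in 7 of 26 (median -0.20), with the de novo enzyme gene Dnmt3a at -0.59 (adjusted p = 0.555) and the methyl donor enzyme gene Mat2a at -0.60 (adjusted p = 0.558). Heterochromatin silencer genes were split evenly, 12 of 24 (median -0.003), and p53 targets were above 0 in 17 of 25 (median 0.16). In each of these 7 lists 0 genes were called by edgeR or DESeq2, and 0 to 4 had an unadjusted p under 0.05. Of all genes tested, 49.5% were above 0 and 7.11% had such a p.

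The mutant effect in MPP4 was set beside that in HSC (stem cells, 6 libraries) and in MPP1 (early multipotent progenitors, 4 libraries). Every ID number in the column names of HSC and MPP1 also occurs in MPP4. Their values are therefore not independent replication of those in MPP4, and the labels do not say whether an ID number is an animal. Fos had a log2 change of 1.84 (SE 0.26, adjusted p = 0.000266) in HSC and 2.78 (SE 0.29, adjusted p = 1.35e-05) in MPP1. Jun had 1.45 (SE 0.26, adjusted p = 0.00537) and 1.64 (SE 0.53, adjusted p = 0.883). In a model of all 18 libraries with the ID number of the column names as a block, the effect in MPP4 minus that in HSC was 0.09 (SE 0.36) for Fos and 0.23 (SE 0.29) for Jun, and neither passed (adjusted p = 1 for both), which does not show that the effects are equal. Slc25a31 and 3830403N18Rik were also called higher in HSC (adjusted p = 4.41e-05 and 0.000297), and Xlr3a had 4.71 (adjusted p = 0.000363). Spc24 had -0.40 (adjusted p = 0.725) in HSC and -2.66 (adjusted p = 0.00115) in MPP1.

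Of 10613 genes, 3 differed in mutant effect between MPP4 and HSC (0.0283%) and 0 between MPP4 and MPP1 (0%), where 466 had an unadjusted p under 0.05. None of the 8 genes called in MPP4 was among them, which does not show that their effects are equal. For Slc25a31 the difference could not be estimated, as no control held a count in MPP4. For 3830403N18Rik and Xlr4a the difference from HSC had an SE of 1.85 and 1.35. The 3 genes that did differ are Ly6g and Mmp9, genes of neutrophils, and Slc4a1, the anion exchanger of red cells. In MPP4 their counts came almost wholly from mutant 2 (256, 174 and 433) and control 4 (13, 12 and 51), the libraries with the most neutrophil and erythroid transcripts. The ID numbers of control 2 and mutant 2 occur only in MPP4. With the ID number as a block, those libraries therefore do not enter the difference between populations. In HSC, mutant 1 held 14, 15 and 31 counts of them, and the other 5 libraries 0 or 1. Without the ID number of control 4 the differences were -5.08, -5.18 and -6.66, without that of mutant 1 they were -6.05, -5.94 and -9.05, and without that of mutant 2 they were -10.94, -10.93 and -11.92, none of them called. No gene was called when batch replaced the ID number as the block.

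**Figure D5:**
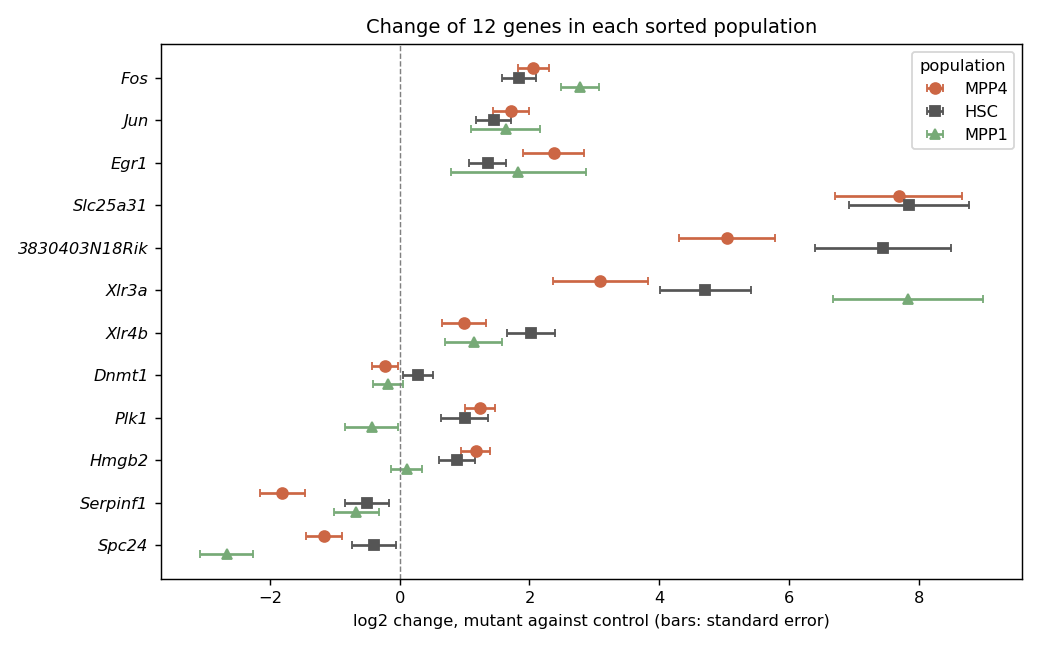
Log2 change between mutant and control of 12 genes in MPP4 (circles), HSC (squares) and MPP1 (triangles), with standard errors as bars; a missing point means the gene was not tested in that population, and values of genes without control counts, such as Slc25a31, depend on the prior count. Fos is above 0 in all 3 populations (2.06, 1.84 and 2.78), and Spc24 is lowest in MPP1 (-2.66).

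The authors' deposited table for MPP4 lists an adjusted p for 14631 genes and calls 13 of them, all higher in mutants. The direction is not stated in its header and was read from the signs. Those matched mutant minus control in 90.5% of genes with 50 or more counts. The authors' deposited table calls Fos, Jun, Slc25a31, 3830403N18Rik, Stag3, Xlr4a and Tifab and does not call Slc16a11. Its values are smaller for low genes: the authors' deposited table gives 2.43 for Slc25a31 and 2.38 for 3830403N18Rik on the log2 scale. It also calls Fosb, Egr1 and Ube2c, which had adjusted p of 0.223, 0.161 and 0.154 in the edgeR fit. The other 3 are Hspa1a, Cryab and Clec10a, below the count filter used here. Hspa1a, an inducible HSP70 gene, stood at 2.99, 0.864, 0 and 0 CPM in controls and at 9.78, 84.1, 30.6 and 41.3 CPM in mutants. Cryab, a small heat shock protein gene, stood at 1.20, 2.59, 0 and 0 CPM in controls and at 25.7, 38.8, 7.65 and 21.1 CPM in mutants. Clec10a, a lectin gene of myeloid cells, stood at 2.40, 0.864, 0.774 and 4.07 CPM in controls and at 17.1, 15.1, 10.2 and 20.2 CPM in mutants. In each of the 3 the groups did not overlap, and these genes are named because the authors' deposited table calls them.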

How the data were processed

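Per the labels' protocols, cells were sorted into lysis buffer and libraries made by CEL-Seq2. The submitters' processing notes name mm10, R 3.4.0 and DESeq2; an aligner or counter is not given in the sources used here. Deposited values are estimated counts: every value from 1000 up lay on the grid of a UMI collision correction, with a ceiling of 36909 reached 4 times in 3 MPP4 libraries. The authors' deposited table gives, per the file headers, DESeq2's log2 fold changes, test scores, p-values and adjusted p-values, besides a mean signal. No 2 MPP4 libraries of 1 genotype agreed within sampling noise.

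The estimated counts are whole as deposited and were tested with edgeR 4.0.16 in R 4.3.3: TMM scaling, the default filter by genotype (minimum count 10), a robust quasi-likelihood fit with batch and genotype, adjusted over all 9392 genes left of 29717. The filter keeps genes present in 1 genotype only. The test was checked on simulated counts. CPM are normalised by TMM. DESeq2 1.42.0, other scalings and filters, other terms and leaving out libraries were tried. A fold against a group without counts uses a floor of 3 counts over the group; floors cover counting error only. Gene lists are described by counts and medians, with no test. Named are 9 fixed genes, the called genes, the 6 smallest p per direction where fewer passed, the leading members of each list described, germline and Xlr genes, genes with counts in 1 genotype only, and genes whose effect differed between populations; exceptions are stated. Members and lists were chosen with earlier results of these data known. Coordinates are from GENCODE vM21 (GRCm38), and promoter windows from RefSeq (GRCm38.p6).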

Additional observations from a re-analysis of the deposited data

Results flagged for a closer look

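In 14 of 130 groups of 4 libraries examined, 1 library lay far from the other 3, and chance does this in about 1 in 20 groups. The flagged values are not all separate. Gata1 is on the erythroid list, and 9 early lymphoid genes are also on the B cell list. Mutant 2 held 19.3% erythroid, 3.51% neutrophil and 0.293% monocyte and macrophage transcripts, and 30.2 CPM of Gata1. Control 4 held 3.06% erythroid, 0.385% neutrophil and 0.00535% mast cell, basophil and eosinophil transcripts. Mutant 3 held 1.26% B cell and plasma cell and 1.66% early lymphoid transcripts, and 897 CPM of Jun. Mutant 1 held 0.560% primary granule transcripts and 30.6 CPM of Serpinf1. Control 2 held 0.739% early lymphoid and 0.0474% T cell transcripts. The mutant effect in MPP4 minus that in HSC was -10.97 for Ly6g, -10.94 for Mmp9 and -12.0 for Slc4a1 on the log2 scale (adjusted p = 0.0266, 0.0266 and 0.0320, edgeR); with batch as the block the values were -1.07, -1.69 and -4.75, none of them called.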

How the results depend on the processing

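The main test called 8 genes, all higher. Numbers called in all (higher, lower) were 22 (15, 7) with library totals only, 88 (64, 24) without a filter, 31 (27, 4) with DESeq2, 3 (3, 0) without the batch term, 21 (17, 4) with Xist as a term, 14 (12, 2) without genes at the ceiling and 17 (14, 3) with the spread shared over 18 libraries. Upper-quartile factors gave 1 lower and batch C alone 3. After seeing the data, 2 settings were added: without control 4 and mutant 2 it was 21 (16, 5), 5 of them among the 8, and without the genes of the erythroid, neutrophil and B cell lists 14 (12, 2). Leaving out 1 library at a time gave from 1 to 20 genes, from 1 to 19 higher and from 0 to 2 lower. In batches A and B, leaving out 1 library takes the whole batch out of the genotype contrast. The setting without control 4 and mutant 2 loses batch B in the same way. Without control 3 only Fos was left, while without control 2 all 8 were among 20. The stricter filter left 3830403N18Rik, Slc16a11, Slc25a31 and Xlr4a untested; Slc25a31 and Xlr4a were also untested in batch C, and Slc25a31 without mutant 4.

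The correlations of deviations of same-numbered libraries were 0.325, -0.0208, 0.336 and -0.0144 for replicates 1 to 4. Those of differently numbered libraries ran from -0.416 to 0.317. Replicates 1 and 3 were thus above that range and replicates 2 and 4 within it, so a pairing by number was not clear throughout. A replicate block in place of batch gave 11 genes, 7 of them among the 8.

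Flt3, near 0 in the main test, turned upward to 0.00649 with DESeq2's size factors, 0.00255 with DESeq2, 0.0332 without batch, 0.329 in batch C, 0.0165 with Xist, 0.0116 with shared spread and 0.0879 without control 4 and mutant 2, and ran from -0.13 to 0.20 leaving out 1 library. Dntt was 0.60 without those libraries and ran from -0.54 to 0.41, and Mecom from -0.16 to 0.40. Genes whose effect differed from HSC numbered 0 with batch as the block and from 0 to 10 leaving out 1 ID number, and for MPP1 from 0 to 4; the difference for Fos ran from -0.42 to 0.42. Why these numbers moved was not tested. The depth of control 4 and mutant 3, with 373963 and 398786 counts, limits what can be seen of genes at a few counts.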
